A study of Mus musculus with 2 samples.

Results

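Neutrophils of the injured liver were 66 of the 7820 cells that passed the filter in the CCl4 library, a share of 0.844% (exact binomial 95% interval 0.653 to 1.07%). They were chosen by the UMI counts of 7 genes, where a UMI (unique molecular identifier) stands for 1 captured RNA molecule. A cell needed at least 10 UMIs of S100a8 and S100a9 together, at least 2 UMIs of Retnlg, Csf3r and Cxcr2 together, at most 1 UMI of Csf1r and at most 10 of Col1a1, so the levels of these 7 genes are a description of the choice and not a result. The study isolated liver cells of Col1a2CreER:Rosa26tdTomato mice, in which the Col1a2 promoter drives an inducible Cre recombinase that turns on a red fluorescent protein in cells with Col1a2 activity, and profiled 1 library from healthy mice, which had no CCl4, and 1 library after chronic injury by CCl4 (carbon tetrachloride), which damages hepatocytes. Both libraries carry this genotype, and per the methods every mouse had a C57BL/6 background. Per the study's methods, CCl4 was injected into the peritoneum 2 times per week for 12 weeks, starting at 8 to 10 weeks of age, and cells carrying CD45, the common surface protein of blood cells, were largely removed with magnetic beads before loading. The age of the healthy mice and the number of mice in each library are not given in the sources used here, and with 1 library per group no difference between cells or libraries has a replicate check. All intervals in brackets are 95% intervals that cover counting error only.

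Neutrophils are short-lived white blood cells that are made in the bone marrow and enter tissues early after injury. While they mature they fill a series of granules, first the primary granules with Mpo and Elane, then the secondary granules with Ltf, Camp and Ngp, and then the gelatinase granules with Mmp9, and the RNAs of each granule class are made at the stage when its granule is filled. Mature cells carry CXCR2, the receptor that answers the chemokines CXCL1, CXCL2 and CXCL5, and stimulated cells make few cytokines, IL-1β and CXCL2 among them.

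The same choice in the healthy library found 1 of 5882 cells (0.017% [0.00043, 0.0947]). That cell held 72 UMIs of S100a8, 119 of S100a9, 9 of Il1b and no UMI of Ltf, Camp or Ngp among 2558 UMIs. Cells of the macrophage and monocyte class, chosen by at least 5 UMIs of Csf1r, Cd68 and C1qa together, were 142 in the CCl4 library (1.82%) and 30 in the healthy library (0.51%), and no cell met both choices. The shares were measured after the removal of CD45-positive cells, how complete that removal was in either library was not tested, and its part in the difference between the libraries cannot be told apart from that of the injury. Ptprc, which codes for CD45, still had a UMI in 62 of the 66 neutrophils. The libraries shared 10 cell barcodes, none of them in a neutrophil or a macrophage.

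The 66 neutrophils held 261124 UMIs, with 769 in the shallowest cell, a median of 2316.5 and 27821 in the deepest. Macrophages and monocytes held 1434731 UMIs with a median of 7760.5 per cell. At an equal depth of 1000 UMIs per cell, the median gene number was 484 in 64 neutrophils, 596 in 134 macrophages and monocytes and 613 in 4230 mesenchymal cells (over 10 UMIs of Col1a1). Mitochondrial transcripts took a median of 0.408% of the UMIs of a neutrophil and 3.18% of those of a macrophage or monocyte, and the highest value in a neutrophil was 25%. A doublet caller marked 489 cells of the library, among them 16 macrophages and monocytes and no neutrophil.

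Around the limits of the choice, 83 cells held at least 10 UMIs of S100a8 and S100a9, and 17 of these were kept out, 14 of them for having under 2 UMIs of Retnlg, Csf3r and Cxcr2. The lowest sums of S100a8 and S100a9 inside the limit were 14, 14 and 17 UMIs, and 1 cell with 6 UMIs met the other conditions. The kept-out cell with the most S100 RNA held 1887 UMIs of S100a8, 2087 of S100a9, 848 of Camp, 694 of Ngp, 29 of primary granule genes and 83 of 10 cell cycle genes, with 1 UMI of Retnlg, Csf3r and Cxcr2. The next held 690 UMIs of S100a8, 182 of primary granule genes and 92 of cell cycle genes. These cells with granule RNA and cell cycle RNA were thus left outside the 66 by the need for Retnlg, Csf3r or Cxcr2, while other such cells were inside.

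2 neutrophils stood apart, and values without them are given where they move a result by over 1.5 times. The first held 706 of the 707 UMIs of Mpo, Elane, Prtn3 and Ctsg found in all neutrophils (229, 144, 208 and 125 UMIs), with 14 UMIs of S100a8, none of S100a9, 2 of Csf3r and none of Ptprc among 14578. The second was the deepest cell, with 27821 UMIs, and held 287 UMIs of 9 mesenchymal genes (163 of Dcn, 74 of Sparc) and 68 of 5 mesothelial genes beside 1207 UMIs of S100a8, 1524 of S100a9, 329 of Camp and 275 of Ngp. The next highest mesenchymal sum in a neutrophil was 32 UMIs and the median was 4.

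Genes that did not enter the choice and are known from neutrophils were found in the chosen cells. Mmp9, the gelatinase that gives the gelatinase granules their name, had 358 UMIs in 57 of 66 neutrophils and none in 142 macrophages and monocytes, at least 656-fold higher in counts per 1000000 UMIs (CPM), where the bound sets the empty class to 3 UMIs. Stfa2l1, a stefin-type protease inhibitor, had 413 UMIs in 38 neutrophils and none in macrophages and monocytes (at least 756-fold). Hdc, which makes histamine, had 273 UMIs in 63 neutrophils and stood 48.4-fold higher [33.3, 72.6], and Pglyrp1, which binds bacterial peptidoglycan, was 52.5-fold higher [39, 72.3] with UMIs in 61 cells. Il1r2, the decoy receptor for IL-1, was found in 46 neutrophils and 7 macrophages and monocytes (67-fold [35.2, 143]). It was not particular to them, since 1309 of 4234 mesenchymal cells also held a UMI, although thinned to 1000 UMIs these shares were 44.1% of neutrophils and 2.67% of mesenchymal cells. Ly6g, the antigen by which mouse neutrophils are sorted, had 120 UMIs in only 21 cells and none in macrophages and monocytes.

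Across all genes with at least 50 CPM in either class, 582 of 3554 were at least 2-fold higher in neutrophils (16.4%) and 1376 at least 2-fold lower (38.7%), with a median log2 ratio of -0.62. S100a8 alone took 87743.8 CPM of the neutrophils and S100a9 115638.5 CPM, which lowers the CPM of all other genes. With edgeR's TMM scaling the counts were 836 higher and 933 lower with a median of -0.16, so 47.3% of the called genes were higher against 29.7% in CPM, and leaving the chosen and the 50 most abundant genes out of the totals gave 45.1%. Ratios between 0.5 and 2 are therefore given as values only. Of the 20 neutrophil identity genes, 19 passed the 50 CPM limit, 17 of these were at least 2-fold higher and none lower, but most of them are known markers of the cell chosen. Both classes were chosen by their markers, so list counts describe the cells and test nothing. The list counts below are to be read beside the 16.4% higher and 38.7% lower over all genes.

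Markers of other cells were low. Of 11 macrophage markers that did not choose either class, 11 were at least 2-fold lower, 7 had no UMI in any neutrophil, and C1qb, a subunit of complement C1q, had 0 UMIs against 3553 (at least 216-fold lower). Adgre1 (F4/80) had 1 UMI and Apoe 68 UMIs in 30 neutrophils against 23029. Monocyte genes differed among themselves. Ccr2, Cx3cr1, Ms4a4c and Ms4a6c had no UMI in neutrophils, whereas Ly6c2 was 6.37-fold higher than in macrophages and monocytes [4.88, 8.33], with UMIs in 21 neutrophils and 29 of its 124 UMIs in the cell with primary granule RNA. All 5 B cell markers and all 6 dendritic cell markers were at 0, as were Epx and Prg2 of eosinophils, Mcpt8 and Cpa3 of basophils and mast cells, and Cd3e of T cells. Cd3d, a T cell receptor component, had 20 UMIs in 14 neutrophils and 1 UMI in macrophages and monocytes, and Nkg7 had 24 of its 25 UMIs in the cell with primary granule RNA. The 9 mesenchymal genes summed to 2339.9 CPM in neutrophils (1388.8 without the deepest cell) and 7503.1 in macrophages and monocytes, and their part in the values of other genes was not tested. Col1a1, which is in this sum with 142 against 712 CPM, was limited by the choice in neutrophils only. Of the 8 other genes 6 passed the 50 CPM limit, and 5 of these were at least 2-fold lower.

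**Figure D1:**
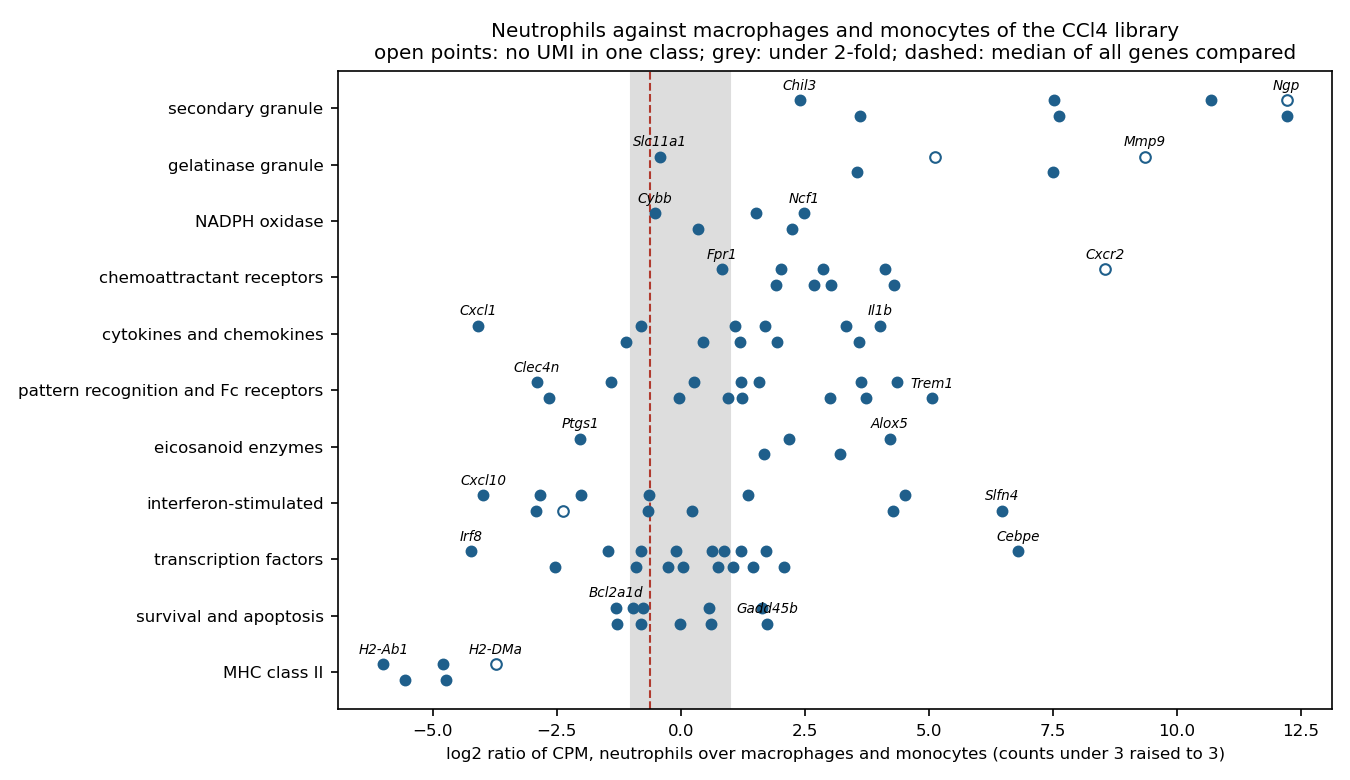
Log2 ratio of CPM in the 66 neutrophils over the 142 macrophages and monocytes for the listed genes reported here with at least 50 CPM in either class, 1 point per gene and 1 row per gene list, with the lowest and highest gene of each list named. Granule genes reached Ngp at the far right, the 5 MHC class II genes lay between -6.00 and -3.73, and the dashed line marks the median of all genes at -0.62. Cxcr2, named among the chemoattractant receptors, was one of the genes that chose the cells.

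The genes of the granule lists differed in how many cells held their RNA, and in which granule each protein lies was not tested. All 6 genes of the primary granule list stood at least 2-fold higher than in macrophages and monocytes. Without the single cell described above only 1 of them still passed the 50 CPM limit, Serpinb1a, which codes for an inhibitor of granule proteases. Ngp, Camp and Ltf, which code for an inhibitor-like granule protein, the cathelicidin peptide and lactoferrin, had 2609, 2596 and 904 UMIs, found in 17, 11 and 17 of the 66 neutrophils, against 0, 1 and 1 UMI in macrophages and monocytes. Lcn2, which binds bacterial siderophores, was broader, with 1536 UMIs in 47 neutrophils (196-fold [145, 272]), and Hp, haptoglobin, was in 58 (12.2-fold [10.5, 14.2]). Of the 7 genes of the secondary granule list past the limit, 7 were higher, and of 5 genes of the gelatinase granule list 4 were. The latter list also held Mmp8, a collagenase (330 UMIs in 31 cells, 181-fold [97.4, 382]), and Adam8 (11.8-fold [7.78, 18.1]). The 7 cells with the most UMIs of a list held 84.1% of the UMIs of the secondary granule list and 50.5% of those of the gelatinase granule list. The 7 deepest cells held 35.8% of all UMIs. Mmp8 gave 330 of the 808 UMIs of the gelatinase granule list.

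The parts of the NADPH oxidase, the complex that makes superoxide in phagosomes, did not all have the same ratio. The cytosolic parts Ncf1 (5.58-fold [4.35, 7.16]) and Ncf4 (2.85-fold [2.16, 3.74]) and the small GTPase Rac2 (4.76-fold [3.98, 5.7]) were at least 2-fold higher in neutrophils than in macrophages and monocytes. The membrane parts lay between 0.5 and 2. Cyba had a ratio of 1.27 [1.13, 1.43] and Cybb, the catalytic subunit, one of 0.697 [0.586, 0.825], which became 0.958 with TMM scaling and 0.285 when each cell weighed the same. Cybb was found in 22 of 66 neutrophils and in 112 of 142 macrophages and monocytes.

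Of 8 chemoattractant receptors past the limit, with Cxcr2 left out because it chose the cells, 7 were at least 2-fold higher in neutrophils and none lower. Over all genes these shares were 16.4% and 38.7%. Ccr1, a receptor for CCL3 and CCL5, was in 55 neutrophils and 17 macrophages and monocytes (17.4-fold [12.2, 25.4]), and Ltb4r1, the leukotriene B4 receptor, was 19.6-fold higher [10.7, 38.4]. C5ar1, the receptor for complement C5a, was 7.33-fold [5.08, 10.6] and Cxcr4, the receptor that holds neutrophils in the marrow, 6.43-fold [4.15, 10]. Fpr2, a formyl peptide receptor, was 3.79-fold higher [2.68, 5.33], and Fpr1 had a ratio of 1.77 [0.977, 3.05]. Among 9 adhesion genes 5 were higher and none lower, among them Selplg, the ligand of P-selectin (5.3-fold [4.04, 6.95]), and Itgam, the CD11b integrin (4.93-fold [3.71, 6.55]). Itgal and Itga4 had ratios of 0.79 and 0.808, with intervals that included 1.

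Il1b and Cxcl2 were the leading cytokine RNAs of the neutrophils. Il1b, the precursor of IL-1β, had 1111 UMIs in 54 of 66 cells, with a median of 66.9 per 10000 UMIs of a cell and a highest value of 242. Its CPM was 4254.7 [4008.1, 4512.4] against 262 in macrophages and monocytes, a ratio of 16.2 [14.4, 18.3]. Cxcl2 had 1850 UMIs in 55 cells, a median of 78.4 per 10000 and a highest value of 417, and its ratio was 10 [9.28, 10.8]. After thinning to 1000 UMIs, 78.6% of neutrophils and 15.8% of macrophages and monocytes held a UMI of Il1b, and 82.2% and 25.4% one of Cxcl2. In mesenchymal cells these thinned shares were 0.0758% for Il1b and 1.6% for Cxcl2, which sets the scale of the background. With every cell weighing the same the ratios were 26.8 for Il1b and 16.1 for Cxcl2. The 66 neutrophils held 61.1% of all Il1b UMIs and 31.7% of all Cxcl2 UMIs of the 7820 cells.

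Ngp and Camp, together with Ltf, define the division of the neutrophils made further on. The sequences upstream of Ngp, Camp, Il1b and Cxcl2 are given because the results turn on this pair of granule genes and this pair of cytokine genes. Each is the 250 bases before the annotated start of the RefSeq gene in build GRCm38.p6, read 5′ to 3′ on the gene's own strand, with matches to a C/EBP motif (TTNNGNAA, or TTNCNNAA on the other strand) and to an NF-kB motif (GGGANTTTCC, or GGAAANTCCC) in capitals. Ngp lies at chr9:110419558-110419807 on the plus strand, Camp at chr9:109849457-109849706 on the minus strand, Il1b at chr2:129371140-129371389 on the minus strand and Cxcl2 at chr5:90903649-90903898 on the plus strand.
Ngp: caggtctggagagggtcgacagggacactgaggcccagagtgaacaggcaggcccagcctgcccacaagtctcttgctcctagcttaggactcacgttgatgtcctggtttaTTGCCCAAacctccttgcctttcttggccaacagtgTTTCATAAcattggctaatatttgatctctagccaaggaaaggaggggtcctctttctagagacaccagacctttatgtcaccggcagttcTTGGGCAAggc
Camp: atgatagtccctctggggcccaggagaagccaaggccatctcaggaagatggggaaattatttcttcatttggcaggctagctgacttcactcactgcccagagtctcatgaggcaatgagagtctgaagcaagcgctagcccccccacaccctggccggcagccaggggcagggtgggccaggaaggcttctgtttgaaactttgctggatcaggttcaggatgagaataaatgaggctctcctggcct
Il1b: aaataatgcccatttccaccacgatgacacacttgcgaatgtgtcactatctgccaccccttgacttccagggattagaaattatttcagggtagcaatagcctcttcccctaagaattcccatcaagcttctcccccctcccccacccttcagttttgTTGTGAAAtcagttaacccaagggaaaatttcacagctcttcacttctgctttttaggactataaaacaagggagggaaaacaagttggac
Cxcl2: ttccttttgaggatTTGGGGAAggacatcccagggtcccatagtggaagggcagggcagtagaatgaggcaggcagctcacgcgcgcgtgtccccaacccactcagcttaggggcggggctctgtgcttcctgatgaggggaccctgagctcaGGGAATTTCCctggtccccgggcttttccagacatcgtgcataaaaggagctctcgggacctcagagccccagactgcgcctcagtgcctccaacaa
The Ngp window held 3 C/EBP matches, Il1b and Cxcl2 held 1 each and Camp none, while 36.8% of all 32851 promoter windows of this length held at least 1. The windows of Ltf and Lcn2 were also read but are not printed, and they held 2 and 1 C/EBP matches and 0 NF-kB matches. The NF-kB letters were found in the Cxcl2 window, starting 97 bases before the start, and in 0.356% of all windows. No C/EBP match overlapped the NF-kB match in these windows, and a match or its absence is a description of the letters only.

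The other cytokine genes did not follow in 1 direction. Of 11 past the limit 7 were at least 2-fold higher and 2 lower, beside 16.4% and 38.7% over all genes. Osm, a cytokine of the IL-6 family, was 12-fold higher [7.04, 21.2], Il1rn, the IL-1 receptor antagonist, 3.85-fold [2.09, 6.95], Csf1, the macrophage growth factor, 3.22-fold [2.04, 5] and Tnf 2.3-fold [1.35, 3.8]. Ccl3 and Ccl4, a neighbouring pair of chemokine genes, had ratios of 1.37 [1.07, 1.73] and 0.571 [0.425, 0.755], in 18 and 13 neutrophils. Cxcl1, which acts through the same receptor as Cxcl2, had 2 UMIs in neutrophils against 281 (25.6-fold lower [7.01, 212]), and Tgfb1 was 2.15-fold lower [1.42, 3.42] in CPM but under 2-fold with TMM scaling, where its ratio was 0.638. Il1a and Il10 had no UMI in any neutrophil.

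Several sensing receptors of the C-type lectin and TREM kind were higher, but not all. Trem1, which amplifies inflammatory signals, was 33.4-fold higher [18.8, 63.6], Clec4d 20.4-fold [13.3, 32.2], Clec4e 13.4-fold [10.1, 17.8] and Trem3 12.4-fold [8.23, 19]. Clec4n, a related lectin receptor, was lower with 2 UMIs against 123 (11.2-fold [3.03, 93.5]), as were Trem2 and the macrophage lectin Clec4f, with 0 UMIs against 705 and 1098 (at least 42.8-fold and 66.6-fold lower). The Fc receptors for antibodies were not high. Fcgr2b was 6.3-fold lower [2.65, 19.6], Fcgr4 2.63-fold lower [1.5, 5.04] in CPM with a ratio of 0.522 under TMM, and Fcgr3 had a ratio of 0.979. In all, 8 of 14 genes of this list past the limit were higher and 3 lower. Nlrp3, the sensor of an inflammasome that processes IL-1β, was 8.07-fold higher [5.04, 13.1]. Among 10 receptors for cytokines, with Csf3r left out because it chose the cells, 2 were higher, Il1r2 and Il1rap, and 1, Ifngr1, lower (2.22-fold [1.51, 3.39], a ratio of 0.62 under TMM). Over all genes 16.4% were higher and 38.7% lower, so the share of these receptors that was higher lay near that of all genes.

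Of 5 enzymes that make eicosanoids and passed the limit, 4 were higher and 1 lower. Alox5, the lipoxygenase, was 18.7-fold higher [6.62, 64.8] on 17 UMIs, and its partner Alox5ap was in 63 of 66 neutrophils (4.58-fold [3.93, 5.32]). Ptgs2, the inducible cyclooxygenase, was 9.2-fold higher [6.22, 13.8], whereas Ptgs1 was 4.07-fold lower [2.35, 7.74], or 6.76-fold without the deepest cell, which held 6 of its 13 UMIs. Ltc4s, the leukotriene C4 synthase, was under the limit with 2 UMIs against 36. Of the interferon-stimulated genes 4 of 12 were higher and 5 lower, beside 16.4% higher and 38.7% lower over all genes. Slfn4 (89-fold [36.6, 281]), Ifitm6 (22.8-fold [17.6, 29.9]) and Ifitm1 (19.3-fold [16.5, 22.8]) were higher, and Cxcl10 (15.9-fold [6.75, 49.1]), Ifit3 (11.5-fold [3.11, 95.7]) and Irf7 (7.21-fold [3.88, 15.1]) were lower. Ifitm1 was also common outside the blood lineage, with a UMI in 66.6% of mesenchymal cells.

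Of 18 transcription factors past the limit 6 were higher and 4 lower, beside the same 16.4% and 38.7% over all genes. Cebpe, which drives secondary granule genes, had 61 UMIs in 15 neutrophils and 2 UMIs in macrophages and monocytes (168-fold [44.4, 1415.0]). Nfkbia, an inhibitor and target of NF-kB, was 4.22-fold higher [3.81, 4.67], Nfkbiz 3.3-fold [2.7, 4.01], Cebpb 2.73-fold [2.46, 3.04] and Junb 2.32-fold [2.1, 2.56]. Irf8, a factor of monocyte and dendritic cell development, had 3 UMIs against 311 (18.9-fold lower [6.4, 92]), and Jun was 2.74-fold lower [2.2, 3.46], with a ratio of 0.365 that became 0.223 without the 2 cells that stood apart. Of the survival genes, Mcl1, on which neutrophils depend, was in 63 cells (3.11-fold [2.72, 3.54]), while Bcl2a1a and Bcl2a1d, near-identical copies between which reads can be split, were 2.44-fold [1.14, 6.25] and 2.46-fold [1.2, 5.84] lower in CPM but had ratios of 0.562 and 0.559 under TMM. Slc2a3, a glucose transporter, was 52.6-fold higher [24.2, 136], and Gapdh and Ldha, enzymes of glycolysis, had ratios of 1.08 and 1.06.

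Cell cycle genes were rare in the 66 cells, with 98 UMIs of 10 genes in 14 cells, 60 of them in 1 cell. That cell also held 1402 UMIs of Ltf, Camp and Ngp, and the cell with primary granule RNA held 22 of the 98. None of the 4 genes past the limit was called in either direction. MHC class II genes, which present antigen, were lower in 5 of 5 cases, with Cd74 at 19 UMIs against 2903 (27.8-fold lower [17.8, 46.3], or 94.4-fold without the deepest cell, which held 14 of the 19). H2-Ab1 had 2 UMIs against 1057 (96.2-fold lower [26.6, 795]), and the deepest cell held 1 of the 2. All 4 genes linked to extracellular traps that passed the limit were higher, but 2 of these, Mpo and Elane, came from the single cell with primary granule RNA. The others were Hmgb2 (7.34-fold [6.33, 8.51]) and Padi4, the enzyme that citrullinates histones, with 14 UMIs in 9 neutrophils against 1 (76.9-fold [11.7, 3252.5]). Of the 426 UMIs of Hmgb2, 117 were in the cell with 60 cell cycle UMIs. Gsdmd, also on this list, was under the limit with 5 UMIs against 60, a ratio of 0.458 [0.143, 1.13].

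The neutrophils were not alike, and the genes that varied most among them were mainly granule genes. After thinning to 1000 UMIs, the variance over the mean across 64 cells was 39.7 for Camp, 36.7 for Ngp, 13.1 for Ltf and 10.9 for Chil3, against a median of 1.17 over 575 genes. Cxcl2 reached 9.58 and Lyz2, lysozyme, 8.98. Mpo (17) and Prtn3 (16) owed their place to the single cell with primary granule RNA. The cells were therefore divided by secondary granule RNA into 19 cells with at least 1 UMI of Ltf, Camp and Ngp together and 47 cells with none, a division made after the values were seen. From here on, cells with granule RNA are those with RNA of Ltf, Camp or Ngp. The 47 others still held RNA of other granule genes, with Lcn2 in 29 cells and Mmp9 in 39, and include the cell with primary granule RNA.

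**Figure D2:**
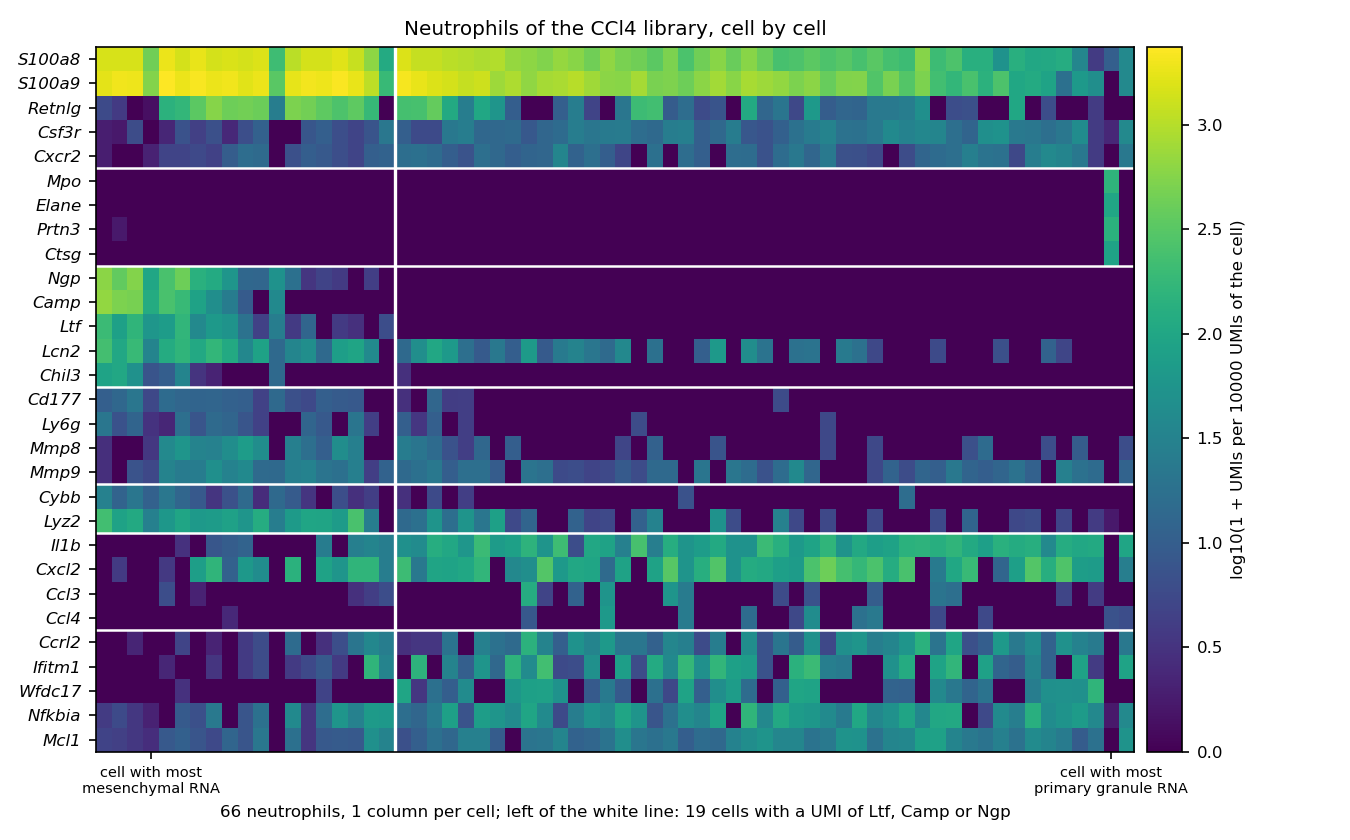
Level of 29 genes in each of the 66 neutrophils, as the log10 of 1 plus UMIs per 10000 UMIs of the cell, with 1 column per cell ordered by Ltf, Camp and Ngp UMIs and then by S100 UMIs. Left of the white line stand the 19 cells with granule RNA, where Cd177, Ly6g, Mmp8, Cybb and Lyz2 are bright and Il1b is dark, and Il1b, Ccrl2 and Wfdc17 are bright in most of the 47 cells to the right.

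Cells with granule RNA were deeper, with a median of 5831 UMIs against 2188, and S100a8 and S100a9 took a median of 33.1% of their UMIs (3 to 42.2%) against 9.41% (0.096 to 36.9%). Of 1538 genes with at least 100 CPM and 10 UMIs in the higher set, 179 were at least 2-fold higher in cells with granule RNA (11.6%) and 531 at least 2-fold lower (34.5%), with a median log2 ratio of -0.59. With the chosen and the 50 most abundant genes left out of the totals the counts were 243 and 316, so 43.5% of the called genes were higher against 25.2% in CPM, and the median was -0.20.

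Il1b separated these sets of cells with little overlap. In the 19 cells with granule RNA its level ran from 0 over a median of 0 to 32.1 UMIs per 10000, and in the 47 others from 0 over a median of 104 to 242. Of the others, 43 of 47 lay above every cell with granule RNA, although the latter were deeper. Il1b had a UMI in 8 of 19 cells against 46 of 47, and its CPM was 19-fold lower in cells with granule RNA [14.8, 25]. The value was 13.7-fold with every cell weighing the same, 17.3-fold without the 2 cells that stood apart, and 35.3-fold when at least 10 UMIs of granule RNA were asked for. The single cell among the 47 without Il1b was the one with primary granule RNA.

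Cxcl2 differed less. Its medians were 25.9 per 10000 in cells with granule RNA (0 to 161) and 92.4 in the others (0 to 417), the sets overlapped, and 14 of the 47 lay above all 19. Summed over cells the difference was 2.75-fold [2.49, 3.05]. When at least 10 UMIs of granule RNA were asked for, it was 4.07-fold, and the median of Cxcl2 in the cells with granule RNA was 2.65 per 10000. Across the list of cytokines, 8 of 10 genes were lower in cells with granule RNA and none higher, Ccl3 (11.6-fold [5.61, 27.7]) and Csf1 (37.8-fold [6.32, 1536.2] on 1 UMI against 33) among them. Over all 1538 genes 34.5% were lower and 11.6% higher.

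**Figure D3:**
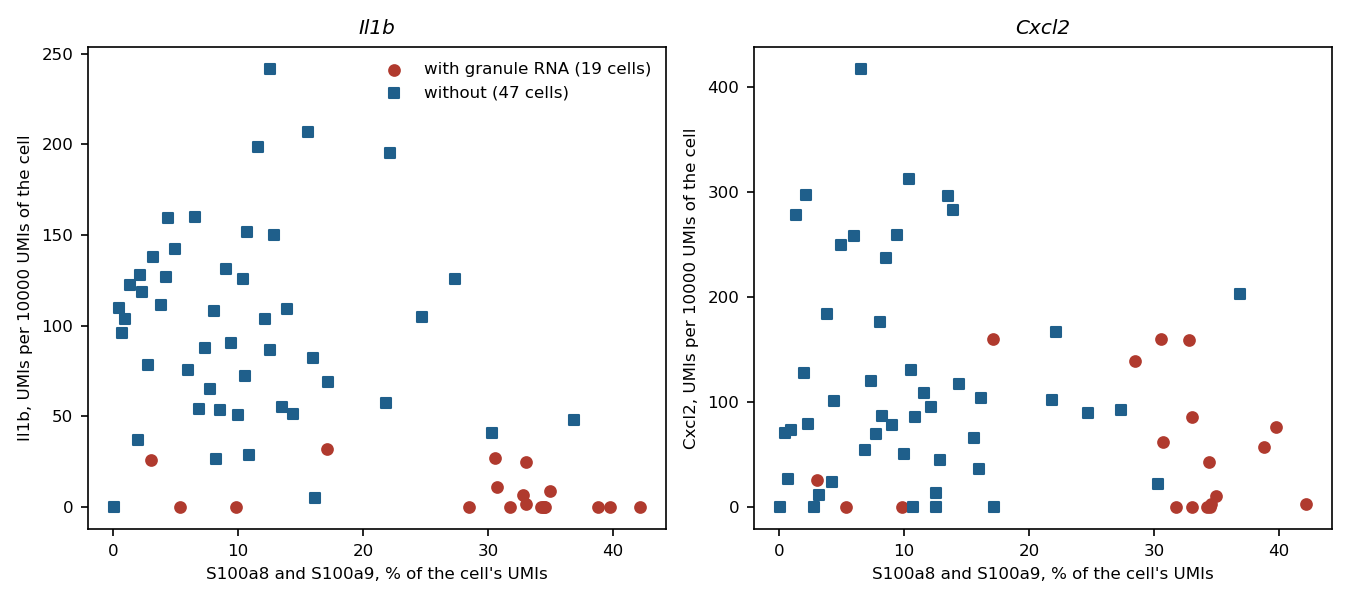
Share of a cell's UMIs taken by S100a8 and S100a9 (x, percent) against the UMIs of Il1b (left) and Cxcl2 (right) per 10000 UMIs of the cell (y), with 1 point per neutrophil. Most of the 19 cells with granule RNA (circles) lie above 25% on the x axis and all of them at or under 32.1 for Il1b, while their Cxcl2 values reach 161 among those of the 47 other cells (squares).

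Further genes went with Il1b. Wfdc17, a secreted protein of activated myeloid cells, had 3 UMIs in cells with granule RNA against 365 (139-fold lower [47.3, 678]), and 32 of the 47 others lay above all 19. Ccrl2, an atypical chemoattractant receptor, was 7.85-fold lower [5.69, 11.1] and Ifitm1 9.81-fold lower [7.67, 12.7]. Srgn, serglycin, which packs granule contents, was present in all 47 others (16.3 to 219 per 10000, median 79.1) and had a median of 14.6 in cells with granule RNA (5.74-fold lower [4.86, 6.82]). The early response genes Ppp1r15a (23.6-fold [7.73, 118], on 3 UMIs against 62) and Dusp1 (9.02-fold) and the itaconate enzyme Acod1 (9.44-fold) were lower too. Nfkbia (3.92-fold [3.26, 4.74]), Junb (3.4-fold [2.81, 4.13]) and Mcl1 (2.95-fold [2.33, 3.74]) differed less but in the same direction. At 10 UMIs of granule RNA the differences grew to 93-fold for Ifitm1, 37.6-fold for Ccrl2, 11.6-fold for Srgn and 8.73-fold for Nfkbia. That of Wfdc17 was at least 83.2-fold and that of Ppp1r15a at least 14.7-fold, bounds in which counts of 1 and 0 UMIs were raised to 3. With every cell weighing the same Ifitm1 was at 4.86-fold, Ccrl2 at 5.01-fold and Ppp1r15a at 9.17-fold.

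The surface receptors used in the choice of cells divided along the same line. Csf3r, the receptor for the growth factor G-CSF, had a median of 5.03 UMIs per 10000 in cells with granule RNA and 17.8 in the others, where every cell held at least 1 UMI, and Cxcr2 had 4.49 against 12.9. Retnlg, a resistin-like secreted protein, went the other way with medians of 272 and 9.41. Summed over cells its ratio was 3.5, but at 10 UMIs of granule RNA it was 1.31, so the difference depended on the limit. As these genes chose the cells, the values are a description. With Csf3r left out, none of 9 cytokine receptors was higher in cells with granule RNA and 6 were lower. Over all genes 11.6% were higher and 34.5% lower. With Cxcr2 left out, 1 of 7 chemoattractant receptors, Fpr2, was higher (2.21-fold) and 4 were lower, and at 10 UMIs of granule RNA Fpr2 had a ratio of 1.68, which left none higher and 5 lower.

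Genes higher in cells with granule RNA included further granule genes, surface proteins and the oxidase subunit Cybb. Cd177, a glycoprotein of the neutrophil surface and secondary granules, had 126 UMIs in 17 of 19 cells against 9 UMIs in 5 of 47 (12.2-fold [6.24, 27.4]). Ly6g had 107 UMIs in 15 cells against 13 in 6 (7.19-fold [4.03, 13.9]), and 7 of the 19 lay above all 47. Cybb had 146 UMIs in 17 cells against 9 in 5 (14.2-fold [7.27, 31.6]), so the catalytic subunit of the oxidase was found mainly in cells with granule RNA. Lyz2 was 8.16-fold higher [6.79, 9.87], Lcn2 5.87-fold [5.06, 6.85], Mmp8 4.89-fold [3.61, 6.75] and Serpinb1a, an inhibitor of granule proteases, 13.4-fold [4.31, 67.4] on 46 UMIs against 3. Asking for at least 10 UMIs of granule RNA, which moves 9 cells to the other set, lowered these folds to 5.62 for Cd177, 3.57 for Ly6g, 2.6 for Lyz2 and 2.32 for Mmp8, left Cybb at 10.5 and Lcn2 at 4.54 and raised Serpinb1a to 22.5. Mmp9 had medians of 19.1 and 11 per 10000 and a ratio of 1.61 [1.29, 2.02]. Saa3 and C3, which also met the size limit, were 10.5-fold and 9.75-fold higher with all cells but had ratios of 0.33 and 1.48 without the 2 cells that stood apart.

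**Figure D4:**
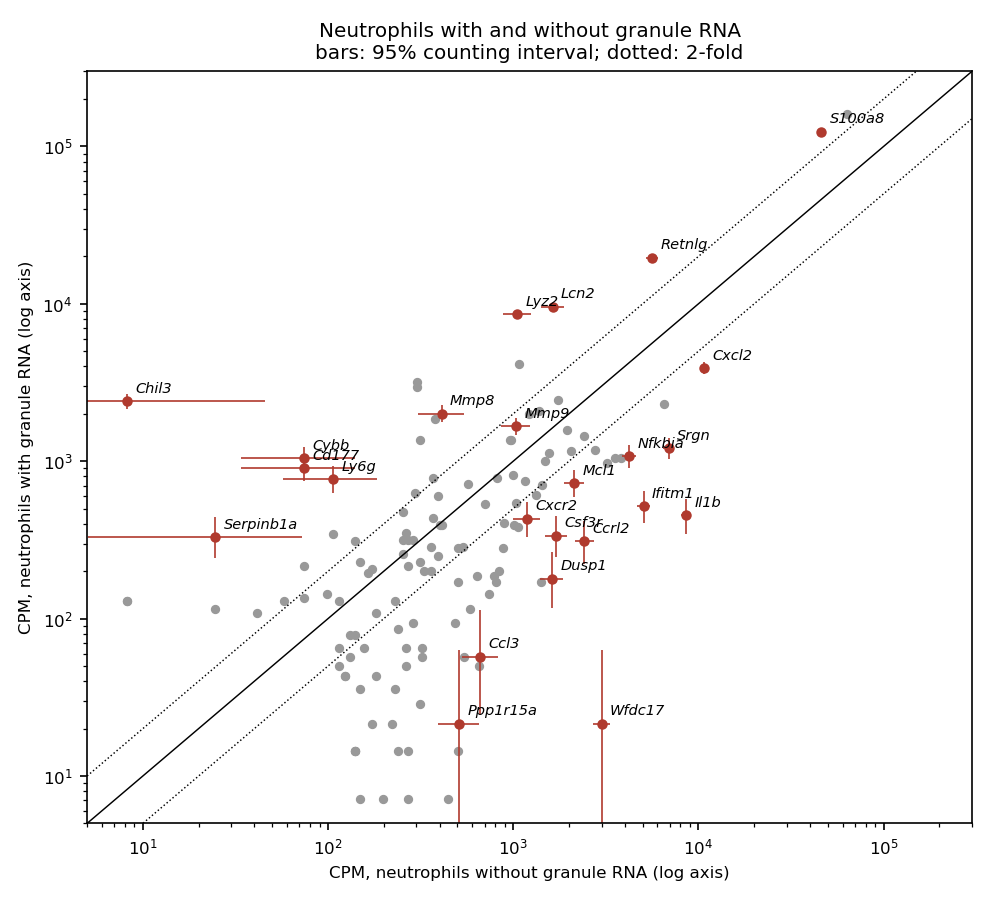
CPM summed over the 19 neutrophils with granule RNA, that is a UMI of Ltf, Camp or Ngp (y), against the 47 without (x), both axes log. Points are the reported genes of the lists past 100 CPM with a UMI in both sets, without the genes of the division and the primary granule genes. Named genes carry their 95% counting intervals, and Chil3, Cybb, Cd177, Ly6g, Lyz2 and Lcn2 lie above the upper dotted line of 2-fold, Wfdc17, Il1b, Ifitm1 and Ccrl2 below the lower one.

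Across the 66 cells the share of S100a8 and S100a9 went with Lcn2 (Spearman's rho 0.80) and Ly6g (0.67) and against Csf3r (-0.55) and Il1b (-0.48), and Csf3r went with Il1b (0.56). Retnlg went the other way from Csf3r, with the S100 share (0.64) and against Il1b (-0.31). S100a8, S100a9, Csf3r and Retnlg chose the cells, which can shape these values, so they are a description only. These values describe cells of 1 library that share its preparation. All are shares of a cell's own UMIs, of which S100a8 and S100a9 can take a large part, and deeper cells had more S100 RNA (0.59), so no p-value is given.

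Signals that act on neutrophils through CXCR2 and the G-CSF receptor were also placed among the cells of the CCl4 library. Cxcl1 had 80.2% of its UMIs in the 4234 mesenchymal cells (321 CPM [317, 325]) and 2 UMIs in the 66 neutrophils. Cxcl5 had 91.1% in mesenchymal cells (131 CPM) and none in neutrophils, and Csf3, which codes for G-CSF, had 85.8% there (459 UMIs in 91 cells) and none in neutrophils. Cxcl2 differed from Cxcl1 and Cxcl5, with 7084.8 CPM in neutrophils, 707 in macrophages and monocytes and 33.3 in mesenchymal cells. Csf1 had 75.2% of its UMIs in mesenchymal cells, but its level there (113 CPM [110, 115]) lay within the interval of that in neutrophils (130 CPM [90.2, 182]). These shares follow the number and depth of the cells of each class as well as the level per UMI. A count of 0 among the 261124 UMIs of the neutrophils allows a level of up to 14.1 CPM, the upper end of the exact Poisson interval, which is above the 6.5 CPM of Csf3 in mesenchymal cells.

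**Figure D5:**
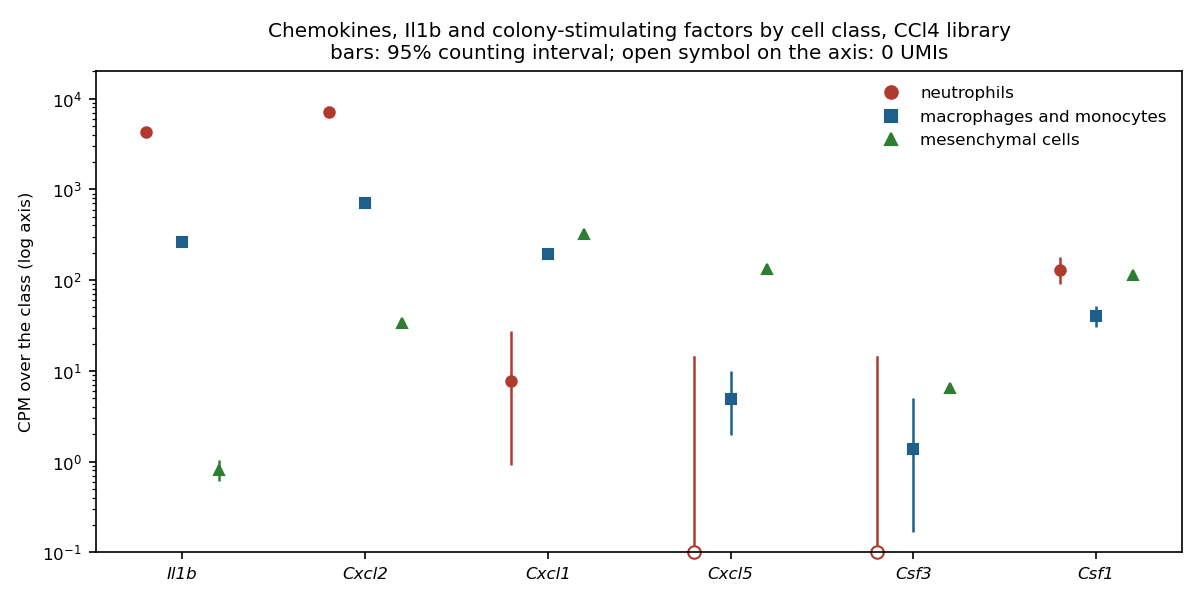
CPM (y, log axis) of 6 signal genes in neutrophils, macrophages and monocytes, and mesenchymal cells of the CCl4 library, with exact Poisson 95% intervals and open symbols for 0 UMIs. Il1b and Cxcl2 are highest in neutrophils, Cxcl1 and Cxcl5 in mesenchymal cells.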

How the data were processed

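For each of the 2 libraries the authors deposited a count matrix, with raw UMI counts of genes in cell barcodes. Per the file headers, Cell Ranger 3.1.0 wrote the healthy matrix (31053 genes) and Cell Ranger 6.0.1 the CCl4 matrix (32285 genes). The submitters' processing notes list fastp and featureCounts 1.6.2 and the builds GRCh38 and mm10, and the gene identifiers of the files are of mouse. Genes were named as in the files, and the upstream sequences came from RefSeq, where 223 of 285 listed genes had a window. Cells with at least 500 UMIs and at most 30% mitochondrial UMIs were kept. UMIs were summed per class and divided by the total (CPM), with exact Poisson intervals for CPM, exact conditional binomial intervals for ratios and exact Clopper-Pearson intervals for shares of cells. Counts under 3 were raised to 3 for calls, medians, plots, alternatives and bounds, while a printed ratio on 1 or 2 UMIs is the raw ratio with its interval. Genes with at least 50 CPM in either class were compared, and a ratio of 2 or more, or of 0.5 or less, was called. Since each group is 1 library, the differences have no p-value. Genes named outside the lists were the 12 largest and 12 smallest ratios and the 12 highest levels past 100 CPM and the 10 most variable genes. Within the division by granule RNA, genes seen in most cells of the higher set were named after the values were seen. Some listed genes count in the list totals but are not reported here by name or in the plots. The members and the gene lists were chosen with earlier results of these data known. Shares were thinned to 1000 UMIs as the share expected over all thinnings, leaving out 2 neutrophils, 8 macrophages and monocytes and 4 mesenchymal cells. Doublets were scored with Scrublet in scanpy 1.11.5 (seed 1) and marked up to 0.8% per 1000 cells. TMM factors came from edgeR 4.0.16. The comparison was also run on simulated data, but no outcome of that run is given here and no result rests on it. The alternatives were other scalings, cell weights, limits and choices of cells.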

Additional observations from a re-analysis of the deposited data

How the results depend on the processing

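The counts of genes at least 2-fold higher or lower in neutrophils stayed within 1.5 times of 582 and 1376 under 11 of 13 alternatives for both directions. With no CPM limit (at least 3 UMIs) 3210 of 12338 genes were higher and 2645 lower, so 54.8% of the called genes were higher, and at 100 CPM 372 were higher and 710 lower, as more and fewer genes entered. The alternatives that left out a cell that stood apart were chosen after seeing the data, as were the division by granule RNA and its alternatives, of which leaving the abundant genes out of the totals moved the lower count from 531 to 316. The number of neutrophils ran from 63 to 66. In the comparison with macrophages and monocytes, of 2241 values for 173 named genes under 13 alternatives, 1969 lay within the counting interval of the value in the report, 272 lay outside it and none changed direction when called, whereas in the division by granule RNA Saa3 went from 10.5 to 0.33 without the 2 cells that stood apart. With every cell weighing the same, the ratio to macrophages and monocytes was 251 for Il1r2, 93.3 for Hdc, 57 for Ifitm1 and 23.8 for Ptgs2, above the summed values, and 50.1 for Cebpe, 26.8 for Pglyrp1 and 9.78 for Ifitm6, below them. For Cebpe the summed value to set beside 50.1 is 112, with its 2 UMIs in macrophages and monocytes raised to 3, and not the raw 168. Depth limits genes near 50 CPM, where a gene has few UMIs in the neutrophils. No paired analysis was possible because each group is 1 library and no result comes from a test.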

Other observations

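Among the abundant RNAs of neutrophils outside the lists, S100a6 (5.64-fold [5.26, 6.04]) and S100a11 (8.76-fold [7.97, 9.64]), small calcium-binding proteins related to S100a8, were higher than in macrophages and monocytes. The stefin-type inhibitors Cstdc4 and Stfa2 had 494 UMIs in 24 cells and 172 UMIs in 11 cells and none in macrophages and monocytes. Lgmn and Aif1 were among the smallest ratios, with 4 and 3 UMIs in neutrophils against 1173 and 745.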
